A study of Homo sapiens with 23 samples.

Results

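OV-90 is an established ovarian adenocarcinoma cell line, and the comparison described here sets its parental, untreated cultures against those of 3 other ovarian cancer lines, Kuramochi, OVSAHO and EFO-21. The 11 libraries were chosen by their label alone: all libraries from parental cells, 2 of OV-90 and 3 of each other line, out of 23 libraries of total RNA from these 4 lines. The other 12 libraries came from sublines of the same lines that had been grown in rising concentrations of prexasertib, an inhibitor of the checkpoint kinase CHK1, and they were used to see whether a difference of parental OV-90 was also present in its resistant subline and whether its size had changed. The labels name no treatment of the parental cells, and they call the libraries of a line biological replicates without saying how the cultures were kept apart. Each line stands for 1 tumour and its own culture history, so line, patient and culture conditions cannot be told apart.

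Serous ovarian carcinomas are thought to descend mostly from the epithelium of the fallopian tube, which forms from the Müllerian duct. Such cells carry the lineage transcription factors PAX8, SOX17, WT1 and EMX2 and the surface antigens mesothelin and CA125. The lining of the stomach, the intestine and the liver descends instead from endoderm, where FOXA, GATA and HNF4 factors switch on genes for secreted mucosal peptides, apolipoproteins and clotting proteins. Ovarian tumours with gut-like or yolk-sac-like differentiation can carry such endodermal genes.

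The values are log2 gene levels that were quantile-normalised over the 23 libraries, so a difference of 1 is a 2-fold change. A gene was called higher or lower in OV-90 where limma's moderated test against the mean of the 3 other line means gave a Benjamini-Hochberg adjusted p under 0.05 over all 21658 genes and the difference was at least 2-fold. The test measures the spread between libraries of a line. The spread between lines was not part of it, and with 1 line against 3 a permutation of the lines cannot give a p under 0.25. The lowest 10% of values in a library, up to 1.81, are called the bottom of the scale, and a difference from a gene at the bottom depends on where the scale ends. In cultures measured as a whole, fewer cells with a transcript and less of it per cell cannot be told apart.

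By these rules 4533 genes (20.9% of those tested) were higher and 5364 (24.8%) were lower in OV-90 than in the mean of the other lines. Against each of the 3 lines separately and in the same direction, 2051 genes (9.47%) were higher and 2170 (10.02%) were lower. The 3 line-by-line comparisons share the same 2 OV-90 libraries. They called 4774 genes higher and 5396 lower against Kuramochi, 4833 and 5574 against OVSAHO, and 5265 and 5603 against EFO-21. By the same rule of a difference from every other line, Kuramochi had 1176 higher and 880 lower genes, OVSAHO 1416 and 1119, and EFO-21 1596 and 1450. Both OV-90 libraries lay above all 9 others for 4220 genes (19.5%) and below all 9 for 4096 (18.9%). Pearson correlations across genes, which are no independent replicates, were 0.641 to 0.701 between OV-90 and other-line libraries and 0.740 to 0.808 between libraries of different lines among the other 3.

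The 2 OV-90 libraries, numbered 2 and 3, were less alike than the libraries of any other group (r = 0.952 against 0.971 to 0.987 within the other parental lines), and 2798 genes (12.9%) were at least 2-fold apart between them, against 1144 to 2028 within the other lines. A part of this followed genes of other tissues, which were grouped after their values were seen. Library 2 held immunoglobulin genes (median level 7.90 over 8 genes, with 0.18 in library 3) and basal keratins (7.02 against 1.37), as did 1 library of Kuramochi and all 3 of OVSAHO. Library 3 held 9 skeletal muscle genes such as MYH2, a fast myosin heavy chain (median 7.02 against 0.22 in library 2), as did the other 2 libraries of Kuramochi. A set of 5 genes that liver or kidney express strongly, among them TTR, PLG and BHMT, had medians of 3.88 to 6.65 in all libraries of OV-90, Kuramochi and OVSAHO and had medians at the bottom in EFO-21 and in the 12 resistant libraries. Against the mean of the other lines, all 5 genes of this last set and 1 skeletal muscle gene were called higher, and TTR, PLG and BHMT enter the counts of liver genes below. None of the 27 genes of the 4 sets was called against each other line. Their part in other results was not tested, and counts that moved by over 1.5 times without library 2 or library 3 are given both ways below. Of the genes called against each line, 167 of the 2051 higher ones and 412 of the 2170 lower ones were at least 2-fold apart between the 2 OV-90 libraries.

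**Figure D1:**
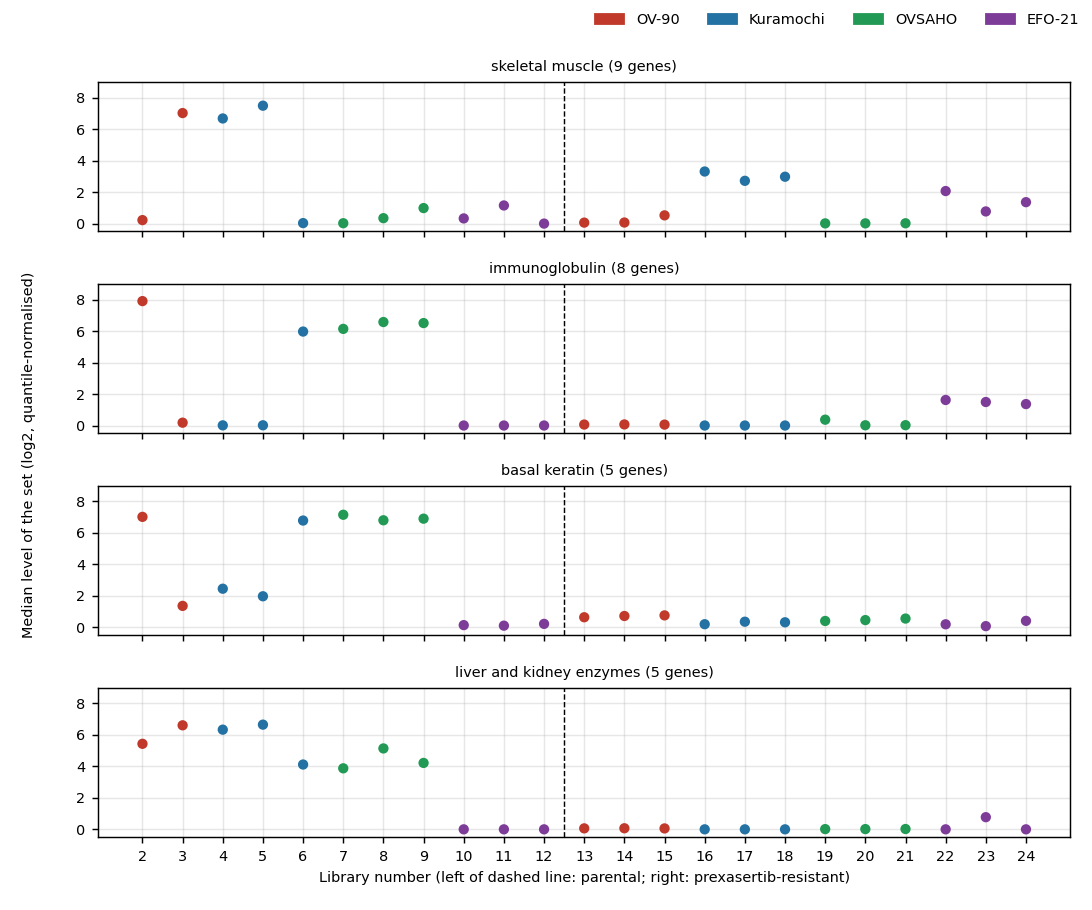
Median log2 level (vertical axes) of 4 sets of genes of other tissues in each of the 23 libraries (horizontal axis, 1 point a library, coloured by line, parental left of the dashed line). Library 3 and Kuramochi libraries 4 and 5 hold the skeletal muscle set, library 2, Kuramochi library 6 and the 3 OVSAHO libraries hold the immunoglobulin set, and parental EFO-21 holds neither.

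Among the 12 genes that set OV-90 furthest above its nearest neighbour were TFF1, TFF3, SPINK1, AGR2 and TSPAN8, which digestive epithelia make. TFF1, a trefoil peptide of the gastric mucosa (chr21:43782391-43786644, GRCh37, minus strand), was at 16.81 and 16.52 in the 2 OV-90 libraries and between 4.11 and 5.69 in the 9 others. The groups did not overlap, which the choice of these genes required, and the difference was 11.89 ± 0.30 SE (adjusted p = 5.45e-10). TFF3, the trefoil peptide of goblet cells, was at 12.63 and 12.06 against 0.51 to 2.53, a difference of 11.02 ± 0.40 SE. It lies in the same cluster on chromosome 21 (chr21:43731777-43735519). SPINK1, a trypsin inhibitor of pancreas and gut mucus, was at 13.31 and 13.03 in OV-90 and between 1.88 and 2.68 elsewhere. AGR2, a protein disulfide isomerase needed for mucin folding, was at 12.69 and 12.67 against 1.32 to 2.77, and TSPAN8, a tetraspanin of digestive epithelium, at 12.86 and 13.10 against 1.88 to 2.55. Every one of these had both OV-90 libraries close together and at least 10 log2 units above the mean of the other lines.

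Of the remaining genes in this group of 12, CEACAM6, a cell adhesion molecule of colonic and gastric epithelium, was at 10.89 and 11.87 in OV-90 and between 0.38 and 1.35 in the others. ANXA10, an annexin of gastric epithelium, was at 11.12 and 11.42 against 0.45 to 1.08. SERPIND1, the liver's heparin cofactor II, was at 11.85 and 12.002 against 0.90 to 1.74. CLDN6, a claudin of fetal epithelia, was at 12.11 and 12.13 against 0.89 to 2.46. CCL26, the chemokine eotaxin-3, was at 14.38 and 14.27 against 2.60 to 4.46, and SPRR2F, a member of a family of near-identical cornified envelope proteins whose reads the counting could split, at 13.74 and 13.35 against 0.00 to 3.88. LUM, the matrix proteoglycan lumican, was the only one of the 12 that the fibroblast list also holds, at 12.31 and 13.21 against 0.44 to 3.01. The rule that chose these 12, and the 12 lower genes below, required a call against each line and no overlap between groups. Neither property is therefore a separate result. For the 12 higher genes, limma adjusted p against the mean ran from 7.64e-11 (TSPAN8) to 4.8e-08 (SPRR2F).

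**Figure D2:**
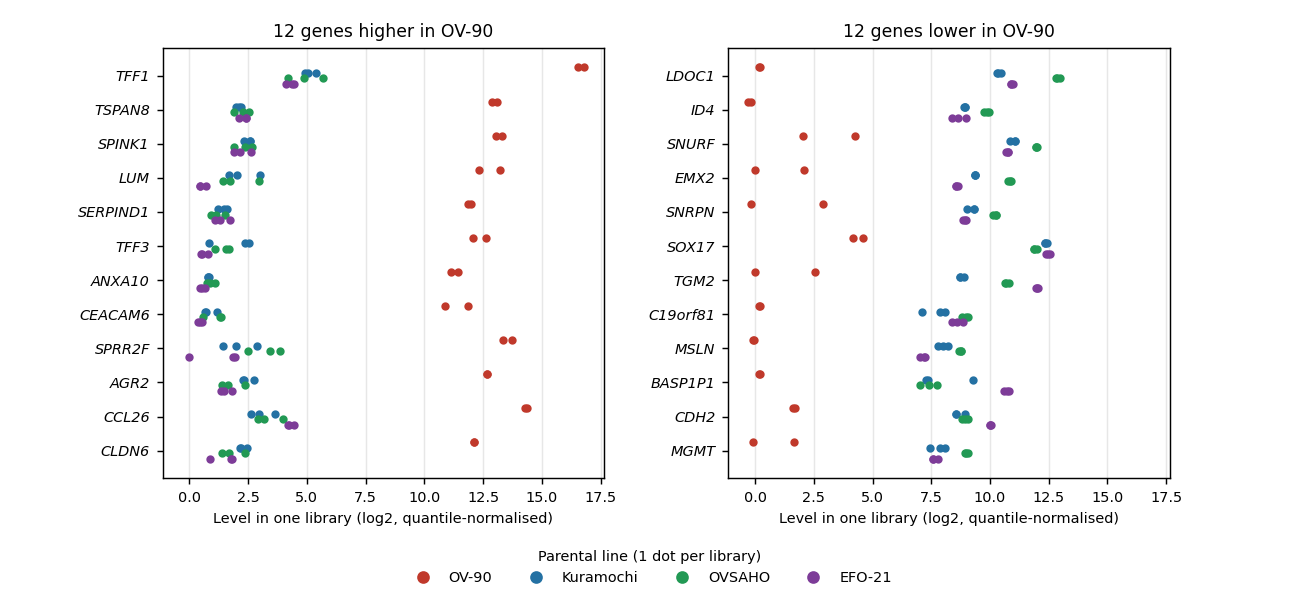
Log2 level (horizontal axes) in the 11 parental libraries, 1 dot a library, of the 12 genes furthest above (left) and the 12 furthest below (right) the nearest other line. In both panels the OV-90 dots stand clear of those of the 3 other lines, as the choice of these genes required. The OV-90 libraries are over 2 log2 units apart for SNURF, EMX2, SNRPN and TGM2.

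Among the 12 genes furthest below the nearest line were EMX2 and SOX17, factors of the Müllerian lineage, MSLN, and SNURF and SNRPN of an imprinted locus. LDOC1, a nuclear leucine zipper protein encoded on the X chromosome (chrX:140205784-140271314), was at 0.22 and 0.18 in OV-90 and between 10.32 and 12.98 in the other lines, a difference of -11.20 ± 0.07 SE (adjusted p = 7.56e-14). ID4, an inhibitor of basic helix-loop-helix factors, was at -0.29 and -0.19 against 8.38 to 9.97. MSLN, the mesothelin antigen (chr16:810734-818865), was at -0.03 and -0.07 against 7.004 to 8.77, and C19orf81 at 0.22 and 0.18 against 7.10 to 9.08. These 4 were at the bottom in both OV-90 libraries. SNURF and SNRPN, which overlap at the imprinted Prader-Willi locus (chr15:25068784-25223870 for SNRPN) and can share reads, were at 4.25 and 2.04 and at 2.90 and -0.16 in libraries 2 and 3, against 10.66 to 11.99 and 8.85 to 10.26 in the others.

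CDH2, the mesenchymal cadherin N-cadherin, was at 1.60 and 1.71 in OV-90 against 8.56 to 10.04 in the other lines. MGMT, the enzyme that removes alkyl groups from guanine, was at -0.09 and 1.66 against 7.44 to 9.06. TGM2, a transglutaminase, was at 2.54 and -0.01 against 8.71 to 12.05, and BASP1P1, a processed pseudogene whose reads could come from its parent gene, at 0.22 and 0.18 against 7.01 to 10.82. CDH2, MGMT and BASP1P1 were also at the bottom in both OV-90 libraries. In SNURF, EMX2, SNRPN and TGM2 library 2 lay above library 3 by more than 2 log2 units, yet below every library of the other lines. The 24 genes in both directions were called under every alternative setting that kept them. They were chosen for large differences in these same libraries, so this is no separate result.

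Endoderm transcription factors were the list with the highest share of higher genes. Of 24 listed, 23 were measured, and 21 (91.3%) were higher and 1 (SOX17) was lower in OV-90, against 20.9% and 24.8% of all genes. Their median difference was 5.52, where all genes had -0.08. Against each other line separately, 17 of the 23 were higher, and the number called higher stayed 21 without library 2, without library 3 and with any 1 of the other lines left out. The forkhead pioneer factors FOXA3 and FOXA2 had the largest differences. FOXA3 was at 10.001 and 10.44 in OV-90 and between 1.14 and 3.86 in the others, a difference of 8.28 ± 0.55 SE. FOXA2 was at 9.26 and 9.72 against 0.53 to 3.65, and its highest other value was in an EFO-21 library (2.01, 3.65 and 0.53 in that line). FOXA1 differed less and was at 6.47 and 7.67, against means of 0.90 in Kuramochi, 4.89 in OVSAHO and 5.90 in EFO-21.

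Factors of liver, pancreas and intestine were high together in OV-90. The hepatocyte nuclear factor HNF4A (7.19 and 7.59 against 0.33 to 4.003) was higher than in each line, and its highest other values came from EFO-21. The intestinal homeobox factors CDX2 (7.27 and 7.31 against 0.03 to 2.70) and ISX (7.35 and 7.63 against 0.09 to 0.66) and the pancreatic and antral factor PDX1 (8.45 and 8.77 against 0.01 to 4.38) were higher than in each line. NR5A2, the liver receptor homologue, was at 7.15 and 8.14 against -0.11 to 2.73, and NR1H4, the bile acid receptor, at 6.22 and 5.26 against 0.00 to 0.21.

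Of the GATA factors of endoderm, GATA6 was present in all 4 lines and GATA4 in 2. GATA6 was at 9.91 and 10.45 in OV-90, with means of 6.86 in Kuramochi, 3.65 in OVSAHO and 4.58 in EFO-21. GATA4 was at 7.73 and 7.77 in OV-90 and 5.28, 5.08 and 5.46 in Kuramochi, and at the bottom in the other 2 lines. CEBPA, a factor of hepatocytes and myeloid cells, was high in all 4 lines and higher still in OV-90 (14.31 and 14.66 against 8.99 to 11.19). HHEX was as high in EFO-21 (9.37, 9.43 and 9.21) as in OV-90 (9.18 and 9.39), and NR1I3 was not called (-0.12 ± 0.12 SE, adjusted p = 0.371). SOX17 went the other way: it marks definitive endoderm and also the Müllerian epithelium, and it was at 4.17 and 4.58 in OV-90 against 11.86 to 12.54 in the other lines.

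**Figure D3:**
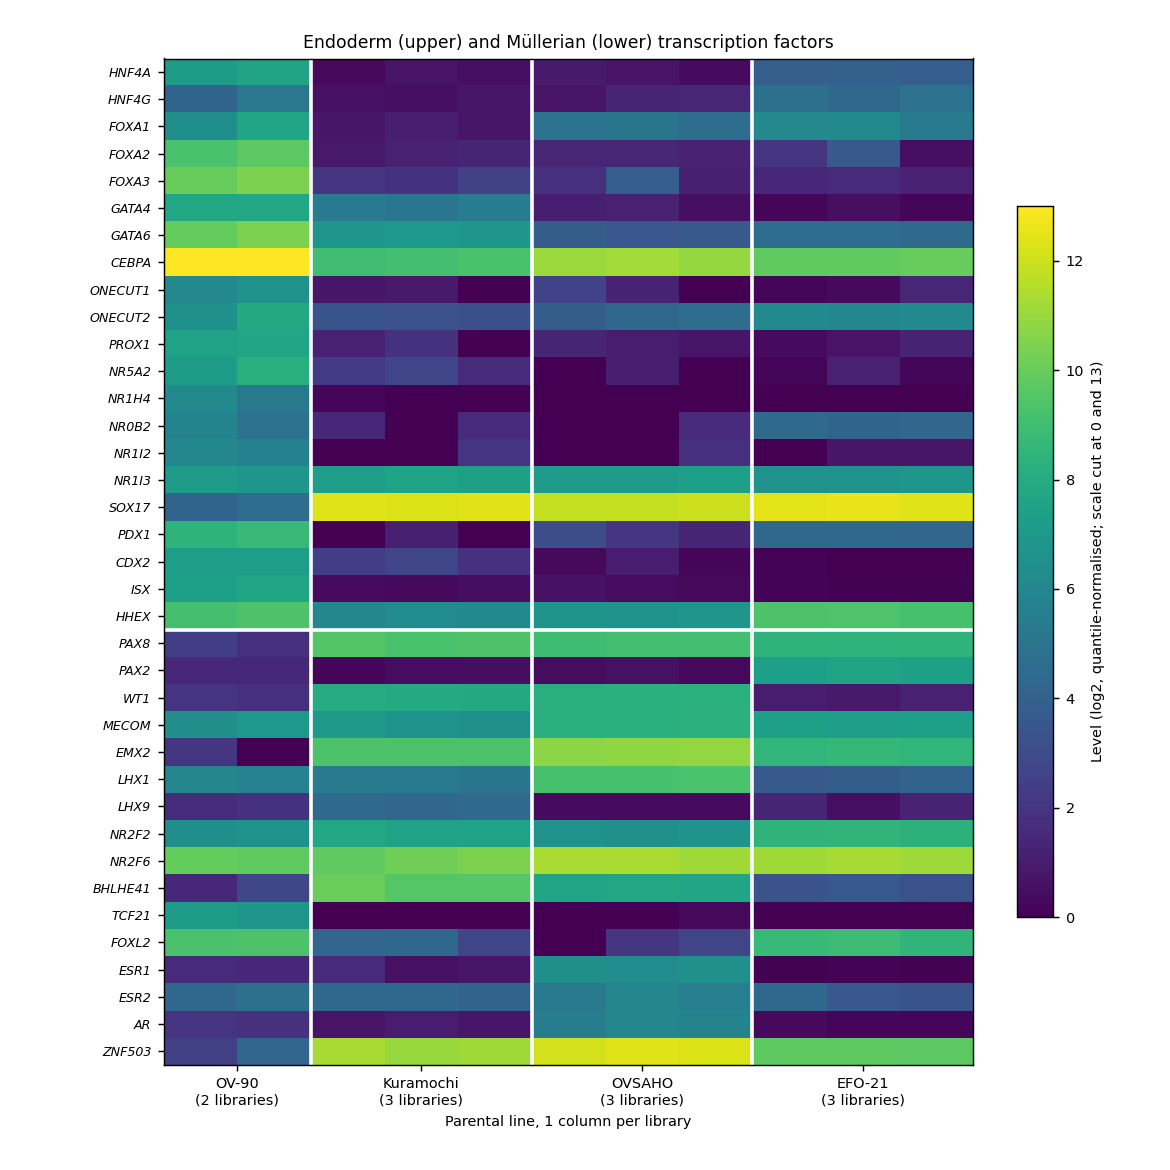
Log2 level (colour) of 21 of the 23 measured endoderm transcription factors (rows above the horizontal white line) and of the Müllerian lineage factors that the upper block does not already hold (below it) in the 11 parental libraries (columns, grouped by line). The OV-90 columns are bright for FOXA2, FOXA3, PDX1, CDX2 and ISX, where the others are darker, and dark for PAX8, EMX2 and ZNF503, where the others are bright.

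HNF4 factors bind DNA at sites related to the letters CAAAGTCCA. Since HNF4A was higher in OV-90 than in each line, the RefSeq promoter windows (GRCh38.p14, from upstream of a gene's start to just past it) were searched on both strands for these letters. They stood in 0.384% of 35116 windows and in 0.472% of the 27305 genes with a window. Of the 44 measured genes of the list of hepatocyte secreted proteins, 33 had a window and 2 held the letters (F10 and AHSG), as did CYP2C8 of the liver metabolism list and MUC13 of the intestinal and gastric list. None of 14 endoderm factors, of 23 junction genes or of 9 of the genes furthest above the other lines with a window held them. The stretches of F10, CYP2C8 and MUC13, which were called higher in OV-90 than in the mean of the other lines, are shown in the direction of the gene, with the matched letters in capitals and 25 bases to each side. In F10 and MUC13 the match was on the opposite strand, so the capitals there are the reverse complement of the searched letters.
F10 (chr13:113122772-113122830, plus strand): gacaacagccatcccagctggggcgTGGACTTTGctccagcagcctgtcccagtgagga
CYP2C8 (chr10:95069517-95069575, minus strand): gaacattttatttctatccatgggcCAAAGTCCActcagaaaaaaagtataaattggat
MUC13 (chr3:124934769-124934827, minus strand): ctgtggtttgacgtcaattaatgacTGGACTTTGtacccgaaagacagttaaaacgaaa
The coagulation factor gene F10 was at 6.89 and 6.55 in OV-90 against 0.37 to 1.89 in the other lines, and the cytochrome gene CYP2C8 at 4.64 and 4.56 against 0.00 to 3.73. The FOXA letters TGTTTAC were in 4.19% of genes with a window, in 1 of the 33 and in 1 of 17 liver metabolism genes. They were also in 2 of the 14 endoderm factors, 1 of 15 intestinal and gastric genes, 3 of the 23 junction genes and 1 of the 9. The grainyhead letters AACCGGTT were in 0.165% of genes with a window and in none of the 33 or of the 23 junction genes. A match is a description of the window and no sign of binding.

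Hepatocyte secreted proteins were higher in OV-90 for 30 of 44 measured genes (68.2%) and lower for 5 (11.4%), with a median difference of 2.89. Among all genes, 20.9% were higher and 24.8% lower. Of the 44, 23 were called higher against each line. SERPIND1 had the largest difference, followed by FGG and FGB of the fibrinogen chains. FGB was at 9.28 and 9.44 in OV-90 and between 0.15 and 0.87 elsewhere, FGG at 9.29 and 9.44 against 0.09 to 0.68, and FGA at 7.65 and 8.08 against 0.49 to 1.59. The 3 chains, which are neighbours on chromosome 4 and are assembled into fibrinogen, were thus at the bottom in all 9 libraries of the other parental lines. ITIH2, a hyaluronan-binding inter-alpha-trypsin inhibitor chain, was at 8.66 and 9.16 against 0.37 to 2.35, with the higher of these values in EFO-21.

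Among carrier and lipid transport proteins of plasma, ALB, AFP, GC and APOB were higher than in each line. ALB, serum albumin, was at 8.10 and 8.11 in OV-90 and at the bottom in all 9 other libraries (0.23 to 1.14). AFP, the fetal albumin homologue, was at a mean of 7.12, against 4.21 in Kuramochi and 0.33 and 0.07 in OVSAHO and EFO-21. GC, the vitamin D binding protein of the same gene family, was at 6.67 and 6.21 against 0.03 to 0.45. APOB, the protein of very low density lipoprotein, was at 7.51 and 8.21 against 0.00 to 3.19, with MTTP, the transfer protein that loads it with lipid, at 6.53 and 7.30 against 0.45 to 1.60. APOC1 (7.07 ± 0.26 SE) and APOE (6.49 ± 0.19 SE) were higher too, while APOA1 was as high in OVSAHO (mean 8.84) as in OV-90 (8.79).

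Not all plasma protein genes were high in OV-90. CP, the copper carrier ceruloplasmin, was at 5.07 and 4.98 in OV-90 against 6.32 to 12.25, and A1BG at 1.70 and 1.58 against 4.74 to 6.13, both lower than in each line. C3, the central complement protein, was lower than the mean of the others (-1.995 ± 0.12 SE), although Kuramochi was lower still (4.05, 4.30 and 3.80). SERPINA1, alpha-1-antitrypsin, was at 2.88 and 1.97 in OV-90, near Kuramochi (2.24, 3.04 and 2.36) and below EFO-21 (6.34, 6.36 and 6.28). TTR and PLG were called higher (2.70 ± 0.70 SE and 1.93 ± 0.75 SE), but these 2 belong to the set that OV-90, Kuramochi and OVSAHO libraries shared, and both were called against EFO-21 only, where they were listed at about 0.

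In the list of liver metabolism and transport, 18 of 25 measured genes were higher and 1 was lower (2 without library 2 and 2 without library 3), with a median difference of 2.69. These were 72% and 4% of the list, beside 20.9% and 24.8% of all genes. The alcohol dehydrogenases ADH1C (9.23 and 9.15 against 0.05 to 0.77) and ADH1B (6.86 and 6.64 against 0.00 to 0.03) and the canalicular drug and bilirubin pump ABCC2 (7.63 and 8.67 against 1.03 to 1.83) led. OTC, an enzyme of the urea cycle, was at a mean of 5.81 against 2.55, 1.98 and 0.09. UGT2B7, a glucuronosyltransferase, was lower (-1.96 ± 0.18 SE). CPS1, the entry enzyme of the urea cycle, was not called (-0.96 ± 0.24 SE) and was highest in OVSAHO (7.07, 7.09 and 7.06). BHMT belongs to the same shared set. It was called higher than the mean but not than Kuramochi, where it was at 6.53, 7.23 and 4.12 against 5.71 and 6.71 in OV-90.

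Of the list of intestinal and gastric epithelium, 18 of 23 measured genes (78.3%) were higher and 4 (17.4%) were lower, against 20.9% and 24.8% of all genes. The median difference was 7.0, the largest of the 22 lists. All but 1 of the 18 (DPP4) were higher than in each line. Beside the trefoil factors and AGR2, REG4, a lectin of enteroendocrine and goblet cells, was at 11.25 and 11.38 against 0.78 to 1.82. CLDN18, the claudin of stomach and lung, was at 10.03 and 10.91 against 0.23 to 1.37. CEACAM5, the carcinoembryonic antigen, was at 8.96 and 9.53 against 0.05 to 0.48, MUC13 at 7.83 and 8.13 against 0.63 to 1.34 and TFF2 at 8.60 and 8.16 against 0.21 to 2.15. Brush border genes were present at lower differences, with VIL1 (villin, 5.62 ± 0.25 SE), CDH17 (liver-intestine cadherin, 5.40 ± 0.29 SE) and MEP1A (meprin, 5.43 ± 0.31 SE).

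The 4 lower genes of that list were the goblet cell mucin MUC2 (at the floor of the scale in OV-90, 0.22 and 0.18, and up to 4.03 in the other lines), the stem cell factor ASCL2 (0.22 and 0.18 in OV-90, and 3.56, 2.82 and 2.45 in OVSAHO), the stem cell receptor LGR5 (3.83 and 4.24, with means of 7.90 in Kuramochi and 8.19 in OVSAHO) and TM4SF4 (1.80 and 1.97, with 7.30 in EFO-21). None of the 4 was lower than in each line. Another 12 listed genes, among them MUC5AC, FABP1 and KRT20, had no row in the table.

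In the list of Müllerian lineage factors, PAX8, EMX2, ZNF503 and SOX17 were lower in OV-90 than in each other line. PAX8 was at 2.43 and 1.77 in OV-90 and at 9.50, 9.27 and 9.35 in Kuramochi, 8.95, 9.04 and 9.06 in OVSAHO and 8.44, 8.42 and 8.46 in EFO-21, a difference of -6.84 ± 0.14 SE (adjusted p = 1.3e-10). EMX2, a homeobox factor of the developing urogenital tract, was at 2.06 and -0.01 against 8.56 to 10.89. ZNF503 (2.46 and 4.25 against 9.75 to 12.35) and SOX17 were low in the same way, and BHLHE41 had a mean of 2.13 against 9.73, 7.70 and 3.38. WT1 was low in OV-90 (1.99 and 1.76) and also in EFO-21 (0.98, 0.90 and 1.21), against 8.05, 7.95 and 7.89 in Kuramochi and 8.19, 8.27 and 8.30 in OVSAHO. In all, 8 of 19 measured factors (42.1%) were lower and 4 (21.1%) were higher, against 24.8% and 20.9% of all genes. The median difference of the list was -0.96. The higher members of the list included TCF21 (7.12 and 6.89 against 0.00 to 0.27), FOXL2, and GATA4, which was also named above among endoderm factors. FOXL2 was nearly as high in EFO-21 (8.73, 8.92 and 8.51) as in OV-90 (9.25 and 9.36). MECOM (-0.76 ± 0.15 SE) and NR2F6 (-0.997 ± 0.13 SE) were not called.

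Antigens used to recognise or target ovarian carcinoma were lower in OV-90 for 21 of 27 genes (77.8%), 13 of them against each line, with a median difference of -3.08. Another 4 (14.8%) were higher, and all genes had shares of 24.8% lower and 20.9% higher. MUC16, which encodes CA125, was at 1.37 and 0.93 in OV-90 against 2.29 to 7.002. WFDC2, which encodes the serum marker HE4, was at 3.57 and 1.90 against 8.26 to 12.64. SLC34A2, the phosphate transporter NaPi2b, was at 2.28 and 3.27 against 7.53 to 9.51, and SPON1 at 3.86 and 4.58 against 10.28 to 11.32. The kallikrein proteases KLK6 (-5.51 ± 0.27 SE) and KLK8 (-3.62 ± 0.26 SE) and the claudins CLDN3 (-3.58 ± 0.27 SE) and CLDN4 (-4.19 ± 0.09 SE) were lower than in each line. The 4 higher members were CLDN6, EPCAM (12.14 and 12.45 against 6.27 to 10.72), FOLR1, the folate receptor (8.91 and 8.49, with 9.37, 9.18 and 9.21 in OVSAHO and 2.86, 3.40 and 3.13 in Kuramochi), and DLL3 (1.23 ± 0.27 SE). PAX8, WT1, MSLN and MUC16, which serous ovarian carcinomas usually carry, were thus at or near the bottom in OV-90. The study's text describes this line as high-grade serous. The epithelial markers EPCAM, KRT8 and KRT18 were present in both OV-90 libraries. Of 10 markers of ovarian carcinoma epithelium 4 were higher and 5 lower, and their summed level was 14.3 to 14.5 in OV-90 and 12.6 to 13.4 in the other lines.

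Junction genes and their regulators were higher in OV-90 for 26 of 41 measured genes (63.4%) and lower for 6 (14.6%), with a median difference of 1.63. Across all genes, 20.9% were higher and 24.8% lower. The 6 lower calls became 3 without library 2. CDH1, which encodes E-cadherin, was at 7.996 and 9.12 in OV-90 and 8.09, 8.07 and 8.27 in OVSAHO, and between 4.39 and 4.88 in Kuramochi and EFO-21. GRHL3, a grainyhead factor of surface epithelia, was at 7.38 and 7.60 against 0.05 to 1.66, while GRHL2 was not called (-0.19 ± 0.84 SE), with its OV-90 libraries at 0.22 and 3.88. The desmosomal plakophilin PKP3 (9.82 and 9.49 against 0.58 to 6.62), the epithelial clathrin adaptor AP1M2 (9.76 and 9.71 against 2.30 to 6.45) and OVOL2, a repressor of mesenchymal genes (4.19 ± 0.20 SE), were higher than in each line. RAB25, a small GTPase of apical recycling, was at 8.39 and 7.56 against 0.00 to 3.06. Of the 2 epithelial splicing factors, ESRP1 was higher (2.76 ± 0.20 SE) and ESRP2 was lower (-2.56 ± 0.11 SE).

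Mesenchymal and matrix genes were lower for 21 of 39 (53.8%), 13 of them against each line, and higher for 6 (15.4%), with a median difference of -1.13. All genes had shares of 24.8% lower and 20.9% higher. VIM, the intermediate filament vimentin, was at 4.74 and 3.02 in OV-90 and between 10.25 and 12.27 in the other lines, a difference of -7.48 ± 0.31 SE (adjusted p = 1.62e-08). The basement membrane collagens COL4A1 (3.35 and 1.93 against 8.15 to 12.80) and COL4A2 (2.68 and 2.23 against 8.65 to 12.69), which share a promoter region, were low together. SPARC (-4.45 ± 0.09 SE), the gelatinase MMP2 (-6.02 ± 0.35 SE) and the repressor ZEB1 (-2.71 ± 0.25 SE) were lower than in each line.

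The 6 higher members of that list were not epithelial genes. DKK1, a secreted Wnt inhibitor, was at 10.77 and 11.31 in OV-90 against 0.53 to 2.64. CDH11, a cadherin of osteoblasts and fibroblasts, was at 6.96 and 7.75 against 0.04 to 1.01. COL1A1 was at 7.78 and 7.60 against 4.09 to 6.72, and FN1, fibronectin, at 11.96 and 13.50 in OV-90 and 12.53, 11.74 and 11.70 in Kuramochi, with 4.03, 4.35 and 4.70 in OVSAHO and 6.34, 6.36 and 6.26 in EFO-21. LOX (2.59 ± 0.17 SE) and TGFB1I1 (1.34 ± 0.11 SE) were the other two. Of 7 measured fibroblast markers, COL1A1, DCN, LUM and PDGFRA were higher and PDGFRB was lower in OV-90. The summed level of the 7 was 12.4 to 13.3 in OV-90 and 6.25 to 10.95 in the other lines, and 12.1 to 12.3 in the resistant OV-90 libraries. COL1A2, another of the 7, was apart between the libraries of OV-90 (6.70 and 1.43) and at the bottom in its resistant libraries. The part of fibroblast RNA in these results was not tested.

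The keratins KRT8 and KRT18 of simple epithelia were present in all lines. KRT18 was at 12.30 and 11.86 in OV-90 and was not called (0.92 ± 0.11 SE), KRT8 was higher (1.04 ± 0.08 SE), and KRT19 was higher than in each line (13.44 and 12.998 against 5.55 to 12.23). KRT7, the keratin of Müllerian and pancreatobiliary ducts, was at 3.41 and 2.43 in OV-90, as low as in Kuramochi and EFO-21 (means 3.76 and 2.76) and far below OVSAHO (11.40, 11.37 and 11.44). KRT80 (-4.84 ± 0.20 SE) and KRT23 (-4.30 ± 0.39 SE) were lower than in each line. Among measured keratins 14.3% were higher and 38.1% lower, against 20.9% and 24.8% of all genes. Of 21 measured keratins 3 were higher and 8 lower, but without library 3 these counts were 10 and 5, and without library 2 they were 2 and 12, with KRT5 at 6.82 and 1.23 and KRT14 at 7.02 and 1.43 in libraries 2 and 3.

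**Figure D4:**
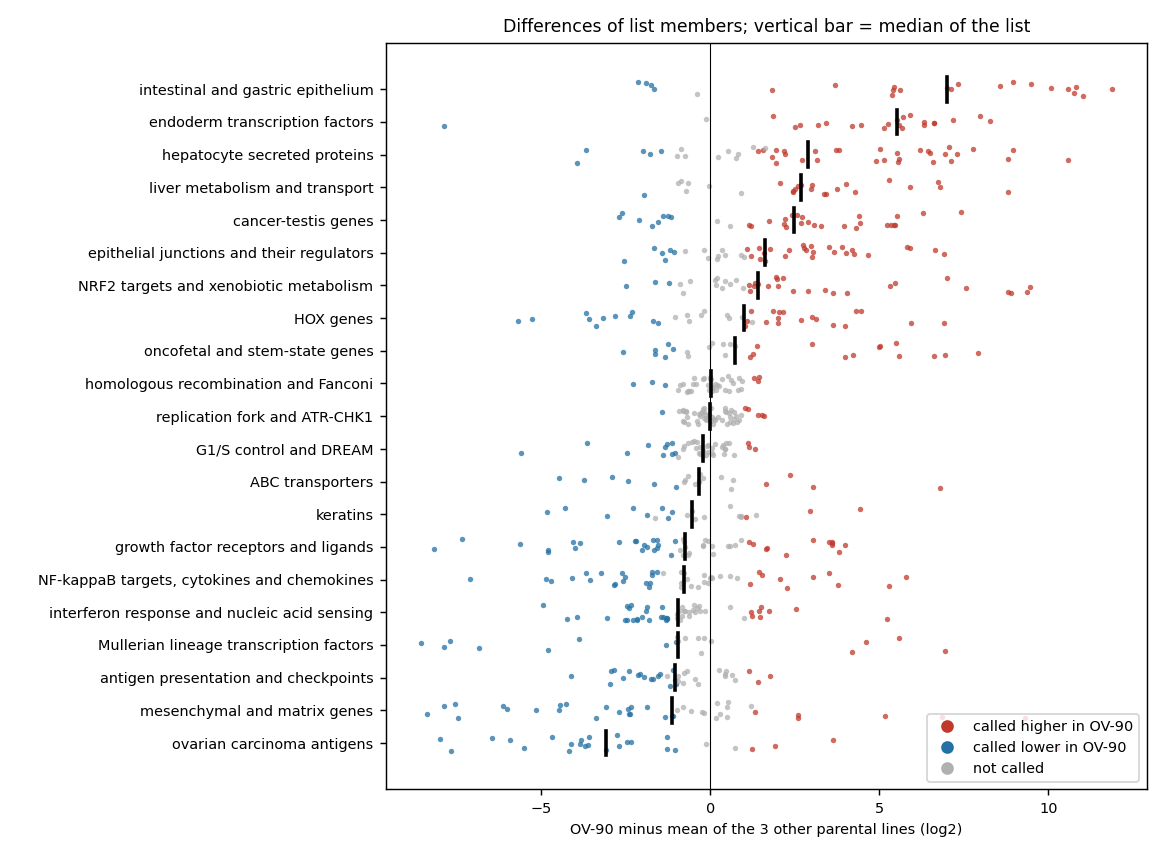
Difference of OV-90 from the mean of the other parental lines (log2, horizontal axis) for each measured member (1 dot) of 21 gene lists (rows, ordered by their median, black bar), coloured by the call. The medians run from -3.08 for ovarian carcinoma antigens to 7.0 for intestinal and gastric epithelium, and replication and repair genes lie close to 0.

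Enzymes that detoxify electrophiles and drugs, many of them targets of the oxidative stress factor NRF2, were higher in OV-90 for 23 of 37 genes (62.2%) and lower for 3 (8.11%), with a median difference of 1.41. Without library 2 the lower calls were 5. Among all genes, 20.9% were higher and 24.8% lower. The glutathione transferase GSTA1 was at 12.01 and 11.87 in OV-90 and between 1.17 and 4.11 in the others, and GSTA2, a close paralogue, had a mean of 8.77 against 3.26, 0.94 and 1.10. The aldo-keto reductases AKR1B10 (11.60 and 11.66 against 2.37 to 3.16), AKR1C1 (12.88 and 12.79 against 2.20 to 4.09) and AKR1C2 (11.91 and 11.90 against 2.41 to 3.72) stood as far apart. AKR1C1 and AKR1C2 are near-identical, so the counting could have split reads between them. NQO1 (3.40 ± 0.12 SE), SRXN1 (1.41 ± 0.16 SE) and the gut glutathione peroxidase GPX2 (7.58 ± 0.19 SE) were also higher than in each line. NFE2L2, which encodes NRF2, was not called (0.36 ± 0.15 SE), nor was its inhibitor KEAP1 (-0.82 ± 0.15 SE). CYP1B1 (-2.50 ± 0.23 SE), EPHX1 (-1.62 ± 0.08 SE) and HMOX1 (-1.23 ± 0.20 SE) were the 3 lower genes.

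Of 21 measured ABC transporters, which pump drugs and lipids, 4 (19%) were higher and 6 (28.6%) were lower, near the 20.9% and 24.8% of all genes. ABCC2 and ABCG2, the breast cancer resistance protein (5.12 and 5.53 against 1.07 to 3.13), were higher than in each line, with ABCC6 (2.34 ± 0.22 SE). The lipid transporters ABCA1 (-2.44 ± 0.27 SE), ABCA2 (-2.92 ± 0.12 SE), ABCA3 (-3.73 ± 0.17 SE) and ABCA4 (-4.48 ± 0.15 SE) were lower than in each line. ABCB1, the P-glycoprotein gene, had no row in the table.

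Oncofetal and stem-state genes were higher for 13 of 27 (48.1%) and lower for 6 (22.2%, or 3 genes without library 2). Over all genes these shares were 20.9% higher and 24.8% lower. L1TD1, an RNA-binding protein of pluripotent cells, was at 8.55 and 8.64 against 0.40 to 1.35, and the fetal mRNA-binding protein IGF2BP1 was at 8.16 and 8.13 against 0.75 to 2.40. SALL4 (5.48 ± 0.28 SE), GPC3, a glypican of fetal liver and yolk sac (4.98 ± 0.11 SE), SOX2 (4.23 ± 0.19 SE) and KLF4 (5.57 ± 0.25 SE) were higher than in each line, as was ALDH1A1, a retinaldehyde dehydrogenase (13.01 and 13.71 against 2.97 to 11.07). POU5F1 was lower (-2.58 ± 0.18 SE), and NANOG had no row.

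Cancer-testis genes, which are silent in most adult tissues, were higher for 24 of 34 (70.6%) and lower for 8 (23.5%). Their median difference was 2.49, and the shares over all genes were 20.9% and 24.8%. DDX43 was at 7.52 and 7.53 in OV-90 and at the bottom in all 9 other libraries. CTAG2 (7.28 and 5.63 against 0.00 to 1.31) and MAGEA10 (6.45 and 6.47 against 0.00 to 2.88) were higher than in each line. MAGEA3 (7.61 and 7.75) was also present in Kuramochi (5.37, 5.77 and 5.74), and MAGEA6, whose sequence is nearly the same, had the same order. The lower ones included MAGEA1 and MAGEA4, which were high in OVSAHO (means 10.27 and 8.64), and PRAME, which was lower than in each line (-2.70 ± 0.12 SE). With genes of low mean left out, 1 higher and 1 lower gene were called.

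HOX genes, which mark position along the body axis, were higher for 18 of 38 (47.4%) and lower for 11 (28.9%). Over all genes these shares were 20.9% and 24.8%. Of the 18 and 11, 4 and 5 were called against each line. HOXC10 (8.57 and 8.21 against 2.60 to 4.95), HOXC11 (7.87 and 8.78 against 0.65 to 2.82) and HOXC13 (8.50 and 8.91 against -0.29 to 3.84), at the posterior end of the C cluster, were higher than in each line. HOXB2 (3.13 and 3.55 against 7.53 to 10.16) and HOXB4 (4.01 and 4.18 against 8.72 to 11.63), at the anterior end of the B cluster, were lower than in each line, while HOXB9 was at 9.26 and 9.64 in OV-90 and 10.60, 10.73 and 10.63 in EFO-21. HOXD8 (-3.60 ± 0.17 SE) was lower.

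Growth factor genes were lower for 21 of 50 (42.0%) and higher for 12 (24%), beside 24.8% and 20.9% of all genes. Insulin-like growth factor binding proteins stood out: IGFBP2 was at 6.51 and 5.99 in OV-90 and between 12.94 and 15.82 elsewhere, and IGFBP3 at -0.39 and -0.23 against 3.03 to 9.70. NRG1, a ligand of ERBB3, was at the bottom in OV-90 (-0.02 and -0.01 against 4.50 to 6.28), and ERBB3 itself was higher than in each line (3.03 ± 0.23 SE). FGF19, the intestinal hormone that acts on bile acid synthesis (6.38 and 6.38 against 0.02 to 4.66), and MST1R, a receptor of digestive epithelium (6.49 and 6.58 against 1.06 to 5.60), were higher. FGF18 (-4.80 ± 0.13 SE) was lower. EGFR (-0.74 ± 0.20 SE), ERBB2 (-0.67 ± 0.07 SE) and MET (-0.82 ± 0.20 SE) were not called.

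In the list of NFκB targets and chemokines, 18 of 46 (39.1%) were lower and 10 (21.7%) were higher, against 24.8% and 20.9% of all genes. CCL2, a chemokine for monocytes, was at 2.45 and 1.997 in OV-90 against 8.24 to 10.55, and CCL20, a chemokine of gut and liver epithelium, was at 10.48 and 10.63 against 2.27 to 6.82. CXCL3 (3.50 ± 0.25 SE), PTGS2 (3.78 ± 0.62 SE) and the endotoxin receptor TLR4 (8.23 and 8.54 against 0.03 to 5.63) were higher than in each line, while SAA1 (-4.87 ± 0.39 SE) and CCL28 (-4.71 ± 0.13 SE) were lower. EFO-21 was the highest of the lines for LCN2, CXCL5, CXCL6 and IL1A, and without EFO-21 the higher calls were 16.

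Interferon and nucleic acid sensing genes were lower for 23 of 50 (46.0%) and higher for 8 (16.0%), with a median difference of -0.95. Of all genes, 24.8% were lower and 20.9% higher. BST2, the tetherin of virions, was at 5.05 and 4.24 in OV-90 against 8.54 to 11.13, and IFITM2 at 6.43 and 5.97 against 9.24 to 10.996. IFI44 (-4.25 ± 0.29 SE) was lower than in each line, and MX2 was higher than in each (6.49 and 6.21 against 0.21 to 3.11). The DNA sensor CGAS was low in OV-90 (mean 2.01), as in OVSAHO (1.46). STING1 was at 6.90 and 6.82 in OV-90, below Kuramochi (8.24, 8.32 and 8.44) and EFO-21 (9.44, 9.48 and 9.55) and above OVSAHO (5.85, 5.65 and 5.73), and its difference of -0.99 ± 0.08 SE was just under 2-fold.

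Antigen presentation genes were lower for 17 of 34 (50.0%) and higher for 3 (8.82%), against 24.8% and 20.9% of all genes. HLA-B (mean 4.96 against 6.48, 7.18 and 7.15) was lower than in each line, with the limit that its alleles differ in sequence from the reference. B2M, the light chain of class I molecules, was lower by 1.02, and CD274, which encodes PD-L1, was at 2.21 and 2.49 against 2.14 to 5.48. The stress ligand ULBP3 was lower (-4.12 ± 0.18 SE) and MICA was higher (1.42 ± 0.19 SE). Of 6 leukocyte markers, LYZ, CD79A and CD3E were higher in OV-90 (LYZ at 11.73 and 12.39 against 1.31 to 6.87), while PTPRC (0.10 ± 0.42 SE), CD14 and CD68 were not called. None of the 6 was at the bottom in OV-90. Their summed level was 11.9 to 12.5 in OV-90 and 6.28 to 8.96 in the other lines, and 12.5 in the resistant OV-90 libraries. LYZ, lysozyme, is also made by gastric and intestinal glands, and the part of leukocyte RNA was not tested.

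Few genes of the pathway that prexasertib acts on were called in OV-90. CHEK1, the gene of its target, was at 7.33 and 7.31 in OV-90, 6.65, 6.79 and 6.81 in Kuramochi, 5.52, 5.59 and 5.56 in OVSAHO and 7.62, 7.46 and 7.63 in EFO-21, so OV-90 lay between EFO-21 and the other lines. The difference of 0.70 ± 0.08 SE passed the test (adjusted p = 3.93e-05) but not the 2-fold threshold. Of 56 replication fork and ATR-CHK1 genes, 5 (8.93%) were higher and 1 was lower, against 20.9% and 24.8% of all genes, and the median difference was -0.01. The higher ones were POLE2 (7.04 and 6.97 against 4.81 to 5.87), POLD1 (9.10 and 9.03 against 6.84 to 8.12), the CDK1-inhibiting kinase PKMYT1 (9.15 and 8.64 against 7.20 to 7.98), CDC45 and RRM2. ATR, the kinase above CHK1, was lower than in each line (5.79 and 6.63 against 7.17 to 7.89), with 0.84 between the OV-90 libraries. Without library 3 the lower calls were 8.

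Of the G1/S genes that the study followed, CCNE1 (7.74 and 7.86 in OV-90 against 7.82 to 8.73), CCNE2 (6.07 and 6.62 against 5.62 to 7.92), FBXW7 (4.18 and 5.51 against 4.16 to 5.99) and CDC25A (5.82 and 6.11 against 5.16 to 6.64) were not called, and neither were CDK2, CCNA2, LIN54, MCM7, MCM10 or RPA2. The list held 43 genes, of which 3 (6.98%) were higher and 10 (23.3%) were lower, or 5 lower without library 2, beside 20.9% and 24.8% of all genes. The germ line cyclin CCNA1 was at 1.49 and 1.06 in OV-90 against 5.73 to 7.55. CCND1, cyclin D1, was at 8.55 and 9.10 against 9.57 to 12.63, CDK6 at 4.24 and 4.55 against 5.60 to 7.48, and the inhibitor CDKN1C at 2.58 and 2.06 against 4.01 to 6.87. FOXM1 (1.12 ± 0.08 SE) and CDKN3 (1.34 ± 0.12 SE) were higher.

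Homologous recombination and Fanconi genes were called for 6 of 40, 3 (7.5%) in each direction, against 20.9% higher and 24.8% lower over all genes. BRCA1 (0.04 ± 0.17 SE) and BRCA2 (0.08 ± 0.26 SE) were not called. FANCA was higher than in each line (8.18 and 8.41 against 6.56 to 7.27), and the break-sensing kinase ATM was lower than in each (4.19 and 5.10 against 6.22 to 7.83). RAD51C and RBBP8 were higher and RIF1 and BARD1 lower. Of genes that DNA damage can induce, GDF15 (12.20 and 12.37 against 5.88 to 10.26), BAX (1.81 ± 0.15 SE) and FDXR (2.36 ± 0.17 SE) were higher than in each line, and PHLDA3 (2.84 and 2.68 against 4.97 to 9.01), FAS (-3.48 ± 0.14 SE) and TP53INP1 (-2.95 ± 0.27 SE) were lower than in each.

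The markers of the remaining cell types went both ways for endothelium and had no lower call for mesothelium and hepatocytes. Of 6 endothelial markers, PECAM1 was higher (6.36 and 6.34, with 8.54, 8.45 and 8.47 in EFO-21) and VWF, CDH5, KDR and CLDN5 were lower, with means at the bottom in OV-90. Of 4 measured mesothelial markers, HAS1 and PRG4 were higher (3.50 ± 0.41 SE and 1.40 ± 0.38 SE) and LRRN4 and DES were not called. The summed level of the 4 was 6.83 to 7.08 in OV-90 and 7.75 to 7.92 in Kuramochi. It was 4.47 to 4.94 in OVSAHO and 7.72 to 7.99 in EFO-21. Of 8 hepatocyte markers 6 were higher and none lower, with a summed level of 9.04 to 9.31 in OV-90 and 4.82 to 8.31 in the other lines. ASGR1 and CPS1 were not called.

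The 12 libraries of resistant sublines, which share no library with the comparison above, showed which differences were also there after long exposure to prexasertib. In them 4160 genes (19.2%) were higher and 4888 (22.6%) were lower in OV-90 than in the mean of the other lines. Of the 2051 genes that were higher in parental OV-90 than in each line, 1768 (86.2%) were called higher in the resistant libraries too, 277 were not called and 6 were called lower. Of the 2170 lower genes, 1524 (70.2%) were called lower again, 640 were not called and 6 were called higher. The median difference of the higher genes was 3.39 in parental and 2.91 in resistant libraries, and that of the lower genes -2.57 and -2.00. All 17 endoderm factors, all 17 intestinal and gastric genes and all 23 hepatocyte genes that were higher than in each parental line were called higher in the resistant libraries. For PAX8 the difference was -6.84 in parental and -6.84 in resistant libraries, for TFF1 11.89 and 12.07, and for SERPIND1 10.59 and 10.60.

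A test of the difference between both contrasts called 2560 genes (11.8%) upward in the resistant libraries and 2119 (9.78%) downward, with all 23 libraries in the fit. Such a change can come from OV-90 or from the other lines. Among the genes named above, the difference for CCNA1 moved from -5.59 to -1.70 (change 3.89 ± 0.25 SE, adjusted p = 2.08e-09). Its mean in OV-90 was 1.27 in parental and 1.53 in resistant libraries, and that in the other lines was 6.87 and 3.23. The difference for TP53INP1 moved from -2.95 to 0.97, that for IGFBP2 from -8.19 to -5.62, and that for EPCAM from 3.64 to 6.01. EPCAM was at means of 12.3 and 12.3 in parental and resistant OV-90, and of 8.66 and 6.32 in the other lines. MTTP went from 5.91 to 8.87, TLR4 from 5.27 to 1.82, and STING1, not called in parental cells, from -0.99 to -2.89. For CHEK1 the difference went from 0.70 to -0.31 (change -1.01 ± 0.07 SE, adjusted p = 9.93e-09). In antigen presentation genes 28 of 34 were lower in resistant OV-90 than in the other resistant lines, and 14 of the 34 had a downward change of the contrast. For all genes these shares were 22.6% and 9.78%.

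**Figure D5:**
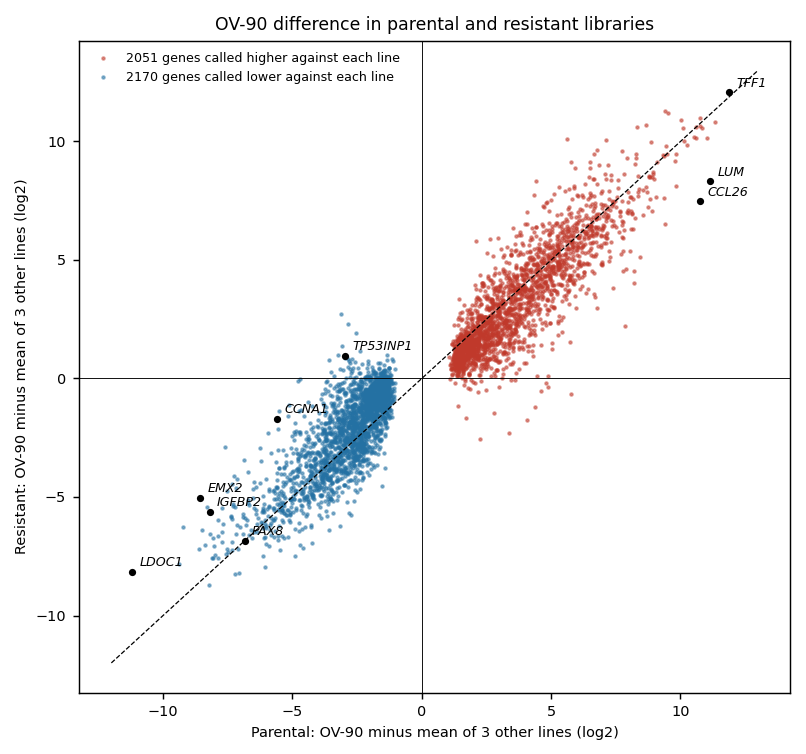
Difference of OV-90 from the mean of the other lines in resistant libraries (vertical axis, log2) against that in parental libraries (horizontal axis, log2), for the 2051 genes higher (red) and the 2170 lower (blue) than in each parental line; the dashed line marks equal differences. Most points keep their side of 0, LUM and CCL26 lie below the line on the right, and TP53INP1 crosses 0.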

How the data were processed

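Total RNA of 23 cultures was sequenced as stranded mRNA libraries with paired-end reads, 11 of them from parental cells. Per the study's methods, the authors aligned reads to GRCh37 (hg19, also named in the submitters' processing notes), added up the reads of repeated assays, dropped exons that few reads covered, estimated each gene's level by robust regression on its exons and junctions and applied quantile normalisation, and the deposited table holds log2 values for 21658 genes. The file gives a robust fit for 16448 genes and a mean of log2 values for 5210. The annotation release and tool versions were not given in the sources used here. No read counts were used here, so the depth behind each value is unknown, and because every library was brought to an equal distribution, a change of all genes together cannot show.

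Columns were assigned to a line and state by their names, and 20745 gene identifiers (95.8%) were matched to RefSeq symbols. The 11 parental libraries entered 1 limma fit (limma 3.58.1, R 4.3.3, lmFit and eBayes with trend, no covariates), with a contrast of OV-90 against the mean of the 3 other line means and a contrast against each line. The 12 resistant libraries had a fit of their own, and the difference between both contrasts came from a fit of all 23. Tests were two-sided, with Benjamini-Hochberg adjustment over all genes and a 2-fold threshold. The procedure was tested on simulated data with known changes.

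Named were the 12 genes in each direction that lay furthest from the nearest other line, among genes called against each line, not overlapping between groups and above the median of all gene means (5.82) on the higher side. X-inactivation and Y-linked genes were left out. Up to 4 called members of each list in each direction, 15 genes that the study's text names and the cell type markers were named as well, and further members after their values were seen. The comparison, the 22 gene lists and the markers were chosen with earlier results of these data known, and 4 sets of genes of other tissues were added after the libraries were compared. Alternatives were leaving out each library or each other line, all libraries in 1 fit, no variance trend, recentred libraries, a filter on low genes and a 1.5-fold or no fold threshold, and, chosen after seeing the data, leaving out libraries 3, 4 and 5. Coordinates of genes are those of the GENCODE annotation on GRCh37, and promoter sequences are from RefSeq on GRCh38.p14. The members of 1 list as a group and a few single genes are not reported here.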

Additional observations from a re-analysis of the deposited data

Results flagged for a closer look

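For 9 of the 24 genes furthest from the nearest line, the difference of OV-90 from the other lines changed between parental and resistant libraries in limma's test of that change over all 23 libraries. The change was -2.85 ± 0.47 SE for LUM (adjusted p = 8.72e-05), from 11.16 to 8.31, with OV-90 at 12.02 to 12.16 in its resistant libraries and resistant OVSAHO at 6.39 to 6.97, above its parental level. It was -3.26 for CCL26, from 10.75 to 7.49, where resistant OV-90 was at 10.98 to 11.11 against 14.27 and 14.38 in parental OV-90. It was 3.05 for LDOC1, from -11.20 to -8.15, with resistant OV-90 at 3.89 to 4.65. For EMX2 it was 3.55, from -8.57 to -5.02, and resistant OV-90 stayed at 1.47 to 1.93 while resistant Kuramochi was at 1.02 to 1.76, at the bottom. For TGM2 it was 2.94, from -9.23 to -6.29. The change was 2.08 for BASP1P1, 1.55 for ID4, 1.51 for MGMT and 1.36 for SNRPN. All 9 stayed on their side of 0 and were called in the resistant libraries. In EMX2, SNRPN and TGM2 the parental OV-90 libraries were over 2 log2 units apart.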

How the results depend on the processing

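Leaving out 1 library at a time gave 4008 to 4773 higher and 4859 to 5739 lower genes against the mean of the lines, 1761 to 2167 higher and 1939 to 2696 lower genes against each line, and 1770 to 3433 upward and 1504 to 2835 downward changes of the contrast. The lowest of these counts came without OV-90 library 2 and the highest without OV-90 library 3, which leave OV-90 with 1 library assumed to vary like the other lines. In resistant libraries the range was 4100 to 4167 higher and 4828 to 4869 lower. With genes under the 25th percentile of mean level left out, 2695 genes were higher against the mean, 1034 higher against each line, 2379 higher and 2948 lower in resistant libraries, and 1263 had a downward change. Fewer genes were tested there. With no fold threshold 7482 genes were higher and 8343 lower against the mean, 3402 and 3717 against each line, and 8332 and 8830 in resistant libraries. Without libraries 3, 4 and 5, a setting chosen after seeing the data, 4670 genes were higher (4080 of them also called with all libraries) and 5662 lower (4846). The 24 genes named by rule kept their call and direction in 501 of 501 values over 21 settings. Their choice by the largest differences in the same libraries made this outcome all but certain, so it is no separate support. Of the other genes named, 33 lost and 18 gained a call in at least 1 setting, and 2 turned: IRF7 went from 1.74 to -0.028 without OVSAHO and CLDN1 from -1.68 to 0.10 without EFO-21. The number of members called moved by over 1.5 times in at least 1 setting for 28 of 44 list counts. With low genes left out, 6 hepatocyte, 2 liver, 8 endoderm factor and 5 gut genes were still called higher, since most genes present in OV-90 alone have a low mean and were not tested. No paired analysis was possible because the columns carry no replicate numbers. Depth could not be assessed without read counts.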

Other observations

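The 12 genes furthest above the nearest line were not at the same level in the libraries of the other lines. Their median was 2.16 to 2.34 in the parental libraries of Kuramochi, 1.79 to 2.00 in those of OVSAHO and 1.38 to 1.75 in those of EFO-21. It was 12.66 to 12.85 in parental OV-90. In the resistant libraries it was 2.30 to 2.86 in Kuramochi and 2.16 to 2.50 in OVSAHO, and 0.105 to 0.153 in EFO-21, where 11 of the 12 were at the bottom in all 3 libraries. The same median was 12.1 in the resistant OV-90 libraries.

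Of the 2170 genes lower than in each line, 594 were at the bottom in OV-90, and of the 2051 higher genes, 324 were at the bottom in all 3 other lines. These are genes listed as present on only 1 side of the comparison.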
